A study of Homo sapiens with 6 samples.

Results

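The genes described here are the 10 core genes of polyamine metabolism, ODC1, AMD1, SRM, SMS, OAZ1, OAZ2, AZIN1, SAT1, SMOX and PAOX. They were taken by exact gene name from a table of 26906 rows, and all 10 had a row of their own. The cells were BE-(2)-C, a human neuroblastoma line in which MYCN is amplified, and RNA was taken 48 hours after an siRNA against ELF4 or a control siRNA. Each of the 2 groups had 3 libraries of polyA-selected RNA. The groups were ELF4 siRNA in BE-(2)-C cells and control siRNA in the same cells, and both shared the line, the DMEM/F12 medium with serum and the MYCN amplification. ELF4 is an ETS-family transcription factor, named in the series title as a promoter of proliferation in this tumour. BE-(2)-C is a clonal line, so the libraries hold 1 genetic background, and the labels do not say whether the siRNA was 1 duplex or a pool.

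Polyamines are small, positively charged molecules that bind nucleic acids and that growing cells need. Ornithine decarboxylase, the product of ODC1, makes putrescine from ornithine. AMD1 supplies the aminopropyl donor, with which SRM makes spermidine and SMS makes spermine. Antizymes (OAZ1, OAZ2) bind ornithine decarboxylase and lower polyamine uptake, and the OAZ1 product sends the enzyme to the proteasome. AZIN1 encodes a decoy that ties the antizymes up. SAT1 acetylates spermidine and spermine, PAOX oxidises the acetylated forms, and SMOX oxidises spermine directly. In neuroblastoma ODC1 is known as a direct target of MYCN, and its enzyme is the target of the inhibitor difluoromethylornithine.

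RefSeq (GRCh38.p14) gave promoter windows, 250 bases before to 50 after a start, for 7 of the 10 genes. PAOX, SMOX and AZIN1 were not matched. The 250 bases upstream of the synthesis genes are printed because the results on synthesis below turn on these genes, and because ETS factors bind a GGAA core and MYC proteins an E-box. Capitals mark CCGGAA on either strand (TTCCGG on the other) and CACGTG, which reads the same on both strands. All are given 5′ to 3′ on the gene's own strand, minus for ODC1 and SRM and plus for AMD1 and SMS.
ODC1 (chr2:10448328-10448577): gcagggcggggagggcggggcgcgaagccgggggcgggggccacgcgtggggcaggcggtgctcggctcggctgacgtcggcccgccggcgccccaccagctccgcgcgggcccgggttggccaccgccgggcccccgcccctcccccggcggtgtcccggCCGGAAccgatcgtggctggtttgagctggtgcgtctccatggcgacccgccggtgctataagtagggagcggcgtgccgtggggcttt
ODC1, around an inner annotated start (chr2:10447987-10448056): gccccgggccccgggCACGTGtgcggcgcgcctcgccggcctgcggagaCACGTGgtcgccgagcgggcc
AMD1 (chr6:110874535-110874784): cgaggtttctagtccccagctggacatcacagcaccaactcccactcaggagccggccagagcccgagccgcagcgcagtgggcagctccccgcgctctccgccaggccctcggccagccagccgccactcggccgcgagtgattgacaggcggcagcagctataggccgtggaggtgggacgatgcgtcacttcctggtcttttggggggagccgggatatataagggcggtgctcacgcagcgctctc
SRM (chr1:11060019-11060268): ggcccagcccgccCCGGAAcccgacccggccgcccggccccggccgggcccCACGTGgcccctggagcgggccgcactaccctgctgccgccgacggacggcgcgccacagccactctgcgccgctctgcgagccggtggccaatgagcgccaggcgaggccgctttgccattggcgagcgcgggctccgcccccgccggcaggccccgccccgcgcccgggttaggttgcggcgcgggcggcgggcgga
SMS (chrX:21940459-21940708): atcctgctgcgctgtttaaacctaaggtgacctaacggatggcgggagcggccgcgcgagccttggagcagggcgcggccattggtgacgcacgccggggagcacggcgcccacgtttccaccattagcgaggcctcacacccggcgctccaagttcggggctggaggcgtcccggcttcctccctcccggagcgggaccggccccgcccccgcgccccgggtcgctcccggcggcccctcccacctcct

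The ODC1 window held 1 CCGGAA, at position -89 from its outer start, and no CACGTG, and the window of its inner start held 2 CACGTG and no CCGGAA. SRM held CCGGAA at position -237 and CACGTG at position -199. The AMD1 and SMS windows held neither CCGGAA nor CACGTG. The shorter GGAA core was not searched for, and its other-strand form TTCC occurs in the printed AMD1 and SMS stretches. Outside the synthesis genes, SAT1 (position -136) and OAZ2 (position -217) held 1 CCGGAA each and OAZ1 held neither. CCGGAA was thus found in 4 of 10 windows of these genes, against 17.2% of all 35116 windows of 300 bases, and CACGTG in 2 of 10, against 7.26%. No match of one motif overlapped a match of the other in these windows. The AMD1 entries include a pair of windows that differ by a shift of 1 base. A match is a run of letters in this window and was not tested as a site.

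The siRNA target was low in every ELF4 siRNA library. ELF4 had a normalised read count of 5.51, 5.61 and 3.10 in the ELF4 siRNA libraries, against 42.4, 38.8 and 46.8 in the control siRNA libraries (log2 fold change -2.96, SE 0.25, limma adjusted p = 5.38e-07). The normalised count divides the reads of a gene by the size factor of its library, and log2 fold changes are ELF4 siRNA over control siRNA on the log2(value + 1) scale. The reads counted in the deposited rows numbered 23148635 to 38097986 per library. All 10 sympathetic neuroblastoma markers had a mean of at least 100. Their summed level was 243100 to 263185 after ELF4 siRNA and 209300 to 223655 after control siRNA, and 3 rose and 3 fell, where 20.7% of all rows tested rose and 24.4% fell (limma, adjusted p under 0.05). CHGA had a mean of 104374 after ELF4 siRNA, against 71155 after control siRNA, and CHGB and HAND2 rose to 142% and 135% of the control mean. MYCN, DBH and ISL1 fell to 90.5%, 89.1% and 89.7%, so the sum does not describe the markers singly. Among fibroblast markers 6 of 7 had a mean of at least 10 and were tested, and 4 rose and 1 fell. Their summed levels were 3851 to 4162 after ELF4 siRNA and 3855 to 3918 after control siRNA, but single markers moved far in opposite directions, COL3A1 to 343% and DCN to 178% of the control mean and PDGFRB to 44.0%. Schwann and glial markers summed to 232 to 243 after ELF4 siRNA and 199.8 to 219 after control siRNA, and of 3 tested 1 rose and 1 fell. Blood and endothelial markers summed to 45.2 to 64.0 and 53.7 to 59.5, and epithelial markers to 136 to 165 and 107 to 127, in the same order of groups. Of 2 tested blood and endothelial markers 1 rose and 1 fell, and of 2 tested epithelial markers 1 rose. Whether the marker levels have a part in the results below was not tested. In bulk RNA, fewer cells of a kind and less RNA per cell cannot be told apart.

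All 10 genes passed the filter on low values. Of them, 5 fell, 1 rose and 4 did not pass (limma, adjusted p under 0.05 over all 20339 rows tested). ODC1, AMD1, SMS, OAZ2 and AZIN1 fell, PAOX rose, and SRM, OAZ1, SAT1 and SMOX did not pass. Over all rows tested 24.4% fell and 20.7% rose, so that 45.1% were called. The median log2 fold change was -0.06 over the 10 genes and -0.0042 over all rows tested. Over rows with a mean of at least 100 it was -0.035. The shares over all rows include rows of low count, while 7 of the 10 genes had a mean of at least 1000. Of the 5682 tested rows with such a mean, 35.1% had a lower log2 fold change than AZIN1, the smallest fall called here. The share called among rows of like level was not computed. The groups did not overlap in 5 of the 10 genes, of which 4 were lower and 1 was higher after ELF4 siRNA, against 53.6% of all rows tested, 28.2% lower and 25.4% higher. The count of genes without overlap is therefore near that of the table as a whole.

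**Figure D1:**
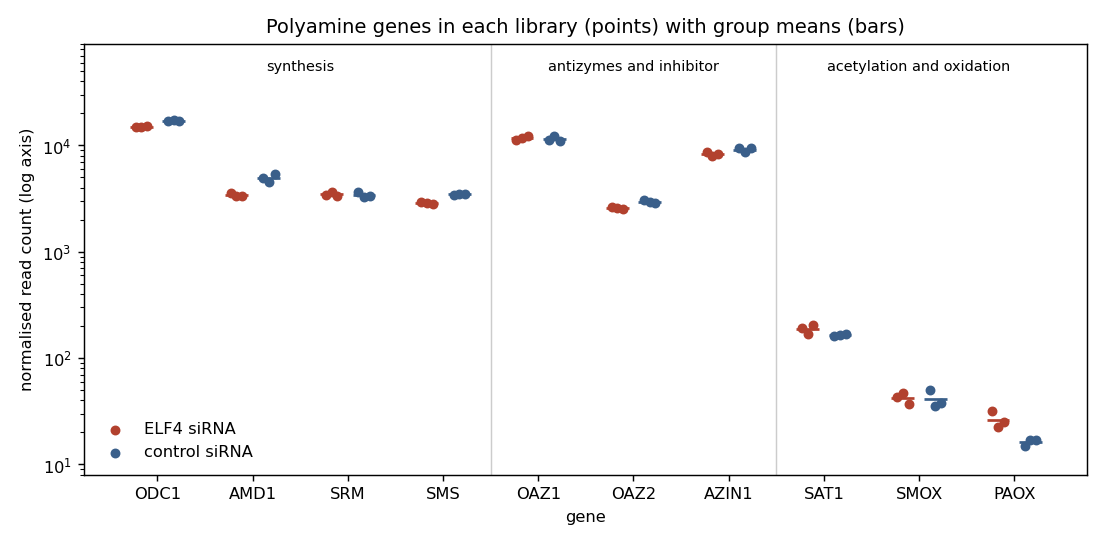
Normalised read count (log axis) of each polyamine gene in the 3 ELF4 siRNA libraries (red) and the 3 control siRNA libraries (blue), with bars at the group means. ODC1, AMD1, SMS and OAZ2 lie lower in every ELF4 siRNA library than in any control siRNA library and PAOX lies higher, while SAT1, SMOX and PAOX lie far below the other genes.

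The synthesis genes did not move as a block. ODC1, the gene of the first and rate-limiting step, had 14953, 14924 and 15347 normalised reads after ELF4 siRNA, against 16988, 17484 and 16884 after control siRNA. All ELF4 siRNA libraries lay below all control siRNA libraries, and the libraries of a group lay close together. The mean was 15075 ± 237 after ELF4 siRNA and 17118 ± 321 after control siRNA (SD, n = 3 each), which is 88.1% of the control level. The log2 fold change was -0.18 (SE 0.04, 95% confidence interval -0.26 to -0.11, limma adjusted p = 0.000751). Among the 5682 tested rows with a mean of at least 1000, 49.2% had a larger absolute log2 fold change than ODC1, and 30.1% had a lower signed one.

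AMD1, which encodes S-adenosylmethionine decarboxylase, fell furthest of the synthesis genes. It had 3578, 3314 and 3349 normalised reads after ELF4 siRNA, against 4984, 4569 and 5338 after control siRNA. The highest ELF4 siRNA library lay well under the lowest control siRNA library. The mean was 3414 ± 143 after ELF4 siRNA and 4964 ± 385 after control siRNA (SD, n = 3 each), or 68.8% of control. The log2 fold change was -0.54 (SE 0.05, adjusted p = 2.44e-06 in limma). Of the same 5682 abundant rows, 8.57% had a larger absolute log2 fold change than AMD1, and 5.83% had a lower signed one. GENCODE 29 has 5 pseudogene entries for AMD1, with AMD1P2 entered on both X and Y, and 2 for SRM. None has a row in the table, so reads from such copies could be counted with or lost from these genes.

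The aminopropyl transferases differed from each other. SMS, the spermine synthase gene, had 2969.8, 2870.1 and 2822 normalised reads after ELF4 siRNA, against 3411, 3489.9 and 3482 after control siRNA. These groups were apart by several times the spread within them. SMS fell to a mean of 2887 ± 75.3 after ELF4 siRNA, against 3461 ± 43.5 after control siRNA (log2 fold change -0.26, SE 0.04, limma adjusted p = 0.000113). SRM, the spermidine synthase gene, had 3449, 3660.3 and 3320.2 normalised reads after ELF4 siRNA, against 3659.5, 3293 and 3375 after control siRNA. The groups overlapped throughout, and the log2 fold change was 0.01 (95% confidence interval -0.09 to 0.12, limma adjusted p = 0.84).

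**Figure D2:**
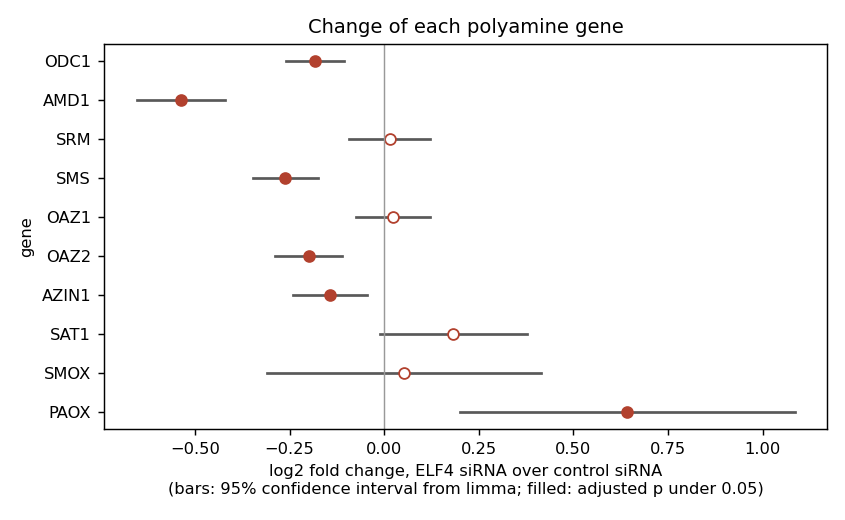
Log2 fold change of each polyamine gene, ELF4 siRNA over control siRNA, with the 95% confidence interval from limma, and filled points for an adjusted p under 0.05. AMD1 stands lowest at -0.54 and PAOX highest at 0.64 with the widest interval, 0.20 to 1.08.

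The antizyme genes also differed. OAZ1, the main antizyme gene, had 11248, 11800.4 and 12165 normalised reads after ELF4 siRNA, against 11301, 12277 and 11073 after control siRNA. The libraries of both groups ran through the same range, with a log2 fold change of 0.02 (95% confidence interval -0.07 to 0.12, limma adjusted p = 0.705). OAZ2, the gene of a second antizyme, had 2616, 2563 and 2536 normalised reads after ELF4 siRNA, against 3040.5, 2939 and 2884 after control siRNA. Here every ELF4 siRNA library was lower than every control siRNA library, and the log2 fold change was -0.20 (SE 0.04, limma adjusted p = 0.0012). Antizyme protein is made through a ribosomal frameshift that polyamines promote, which RNA levels do not show.

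AZIN1, the gene of the antizyme inhibitor, had 8605, 7925 and 8249.7 normalised reads after ELF4 siRNA, against 9379.7, 8593 and 9412 after control siRNA. ELF4 siRNA replicate 1 lay just above control siRNA replicate 2, so the groups overlapped. The mean was 8259.9 ± 341 after ELF4 siRNA and 9128 ± 464 after control siRNA (SD, n = 3 each), and the log2 fold change was -0.14 (SE 0.05, adjusted p = 0.0193 in limma). The AZIN1 call did not hold without ELF4 siRNA replicate 2 (limma adjusted p = 0.0848), without control siRNA replicate 1 (0.0912) or 3 (0.082), without the trend (0.114) and with upper quartile scaling (0.145), and over all its alternatives the adjusted p ran from 0.00191 to 0.145. In GENCODE 29 genes on the opposite strand overlap exons of AZIN1 (AZIN1-AS1), OAZ2 (AC100830.3) and OAZ1 (JSRP1). No strand setting is stated, so it is not known whether reads of opposite strands were told apart. Of these genes only AC100830.3 had a row under that name. Its mean was 16.2 after ELF4 siRNA and 15.8 after control siRNA. On the same strand AC005258.1 overlaps exons of OAZ1 and AL360181.3 those of PAOX, neither with a row under that name. Reads in these overlaps cannot be told apart by strand.

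The genes of acetylation and oxidation were expressed at low levels in these cells. SAT1, the acetyltransferase that starts polyamine breakdown and export, had 193, 168 and 204 normalised reads after ELF4 siRNA, against 162, 164 and 169 after control siRNA. ELF4 siRNA replicate 2 lay among the controls and the other two ELF4 siRNA libraries lay above them. The log2 fold change was 0.18 (95% confidence interval -0.01 to 0.38) and did not pass (limma adjusted p = 0.117). It passed without ELF4 siRNA replicate 2 (log2 fold change 0.26, limma adjusted p = 0.0351) and with upper quartile scaling (0.25, 0.0364), and the adjusted p ranged from 0.0351 to 0.32 over the alternatives. SMOX, the spermine oxidase gene, had 43.0, 47.1 and 37.3 normalised reads after ELF4 siRNA, against 49.9, 35.4 and 38.3 after control siRNA. Its groups overlapped, with a log2 fold change of 0.05 (95% confidence interval -0.31 to 0.41, limma adjusted p = 0.832). The data at this depth leave any change within that interval possible.

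PAOX, the oxidase of acetylated polyamines in peroxisomes, was the only one of the 10 genes that rose. It had 31.9, 22.4 and 24.8 normalised reads after ELF4 siRNA, against 15.1, 17.1 and 17.0 after control siRNA. The groups did not overlap, but these values rest on 29, 20 and 24 reads after ELF4 siRNA and on 16, 15 and 24 reads after control siRNA. The log2 fold change was 0.64 (SE 0.21, limma adjusted p = 0.0202). The call was lost with DESeq2 (adjusted p = 0.132) and, in limma, without ELF4 siRNA replicate 1 (adjusted p = 0.0951) or control siRNA replicate 1 (0.0673), in a range of 0.0119 to 0.132 over the alternatives. A further row joined PAOX to RP11-108K14.8 and had 4.41, 5.61 and 5.17 normalised reads after ELF4 siRNA, against 0, 6.85 and 3.54 after control siRNA. With that row added, an alternative chosen after seeing the data, the log2 fold change was 0.65 (limma adjusted p = 0.0203).

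Per length, the genes ranged widely in level. Divided by the longest coding transcript in GENCODE 29, the levels in normalised reads per kilobase were, after ELF4 siRNA and after control siRNA, 10225 ± 402 and 10061 ± 557 for OAZ1, 5682 ± 89.2 and 6452 ± 121 for ODC1, and 2746 ± 136 and 2719 ± 152 for SRM (SD, n = 3 each). AZIN1 and SMS followed in the control siRNA libraries at 1933 ± 98.2 and 1884 ± 23.7 per kilobase, and did not differ beyond their spread. OAZ2 (1528 ± 41.1) and AMD1 (1444 ± 112) came next and also overlapped. SAT1 (155 ± 3.46), SMOX (17.7 ± 3.32) and PAOX (8.83 ± 0.62) were the lowest, each apart from its neighbours. Divided by the union of all annotated exons, ODC1 stood first in the control siRNA libraries at 5768 ± 108 per kilobase and OAZ1 second at 3362 ± 186, SMS stood above AZIN1 and AMD1 above OAZ2, so the order of these pairs depends on the length used.

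Read ratios of a pair of genes within each library do not depend on the scaling between libraries. The pairs were chosen after the single genes were known, and 3 libraries against 3 cannot give an exact permutation p below 0.1. The log2 ratio of SMS over SRM was -0.22, -0.35 and -0.23 in the ELF4 siRNA libraries, against -0.10, 0.08 and 0.05 in the control siRNA libraries. The groups did not overlap, with a difference of -0.28 (exact permutation test, two-sided, p = 0.1, adjusted over 5 ratios 0.125). The ratio of AMD1 over ODC1 differed by -0.35 on the log2 scale, that of OAZ2 over OAZ1 by -0.22 and that of ODC1 over OAZ1 by -0.21, again without overlap (p = 0.1 and adjusted 0.125 for each, exact permutation test). The ratio of AZIN1 over OAZ1 overlapped between the groups (difference -0.17, exact permutation p = 0.2, adjusted 0.2). In each pair without overlap the first gene had itself fallen without overlap, so these ratios are not results apart from those of the single genes. The share of all pairs without overlap was not computed. Of all single rows tested, 53.6% had no overlap.

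**Figure D3:**
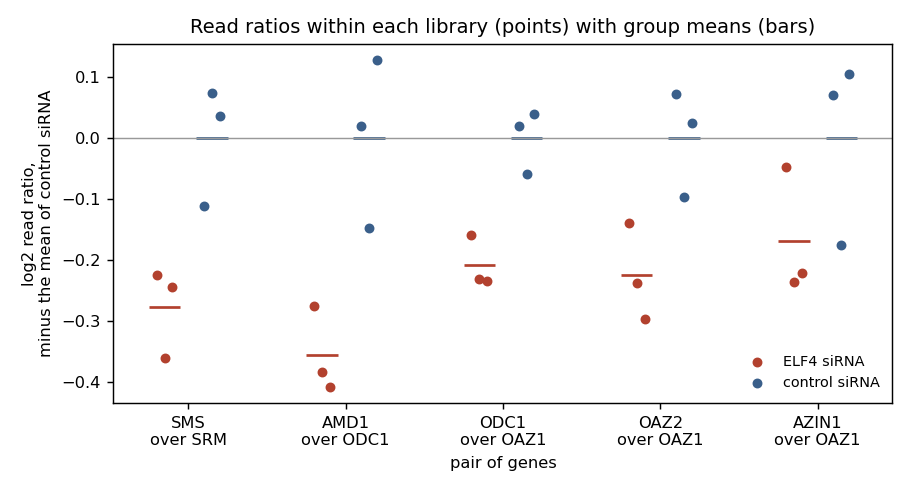
Log2 ratio of the reads of a pair of genes in each library, minus the mean of the control siRNA libraries, for ELF4 siRNA (red, left) and control siRNA (blue, right), with bars at the group means. In 4 of the 5 pairs every ELF4 siRNA library lies under every control siRNA library, and AZIN1 over OAZ1 overlaps. The pairs were chosen after the single genes were known, and 53.6% of all single rows tested had no overlap. The share over all pairs was not computed.

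MYCN, which encodes the MYC-family factor known to bind the ODC1 gene, had 73012, 73613 and 66358 normalised reads after ELF4 siRNA, against 80148, 75298 and 79885 after control siRNA. The groups were close but did not overlap (log2 fold change -0.14, SE 0.05, limma adjusted p = 0.0189). That call did not hold without ELF4 siRNA replicate 3 (limma adjusted p = 0.0706), without control siRNA replicate 1 (0.0821) or 3 (0.0694), without the trend (0.115) and with upper quartile scaling (0.163), within a range of 0.00499 to 0.163 over all alternatives.

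Around the core genes, lists of 41 genes were written from textbook knowledge, of which 35 had a row and 34 were tested. Falls numbered 15, rises 5 and genes that did not pass 14, where 24.4% of all rows tested fell and 20.7% rose. The median of their log2 fold changes was -0.13, beside -0.0042 over all rows tested. Over rows with a mean of at least 100 the median was -0.035. The shares over all rows, here and for each list below, include rows of low count. The share that fell among rows of like level was not computed, so no excess of falls can be read from these counts. In the list of ornithine and arginine supply, 5 of 10 tested genes fell, 3 rose and 2 did not pass, beside the same 24.4% and 20.7%. ASS1, which makes argininosuccinate, had 8539, 8964 and 9142 normalised reads after ELF4 siRNA, against 12499, 13210.1 and 11844 after control siRNA (log2 fold change -0.49, limma adjusted p = 9.65e-07). ASS1 has processed pseudogenes with rows in the table, so its own level is uncertain. OAT, the aminotransferase that links ornithine to proline and glutamate, fell with a log2 fold change of -0.34 (limma adjusted p = 3.18e-05). ARG2, the mitochondrial arginase that makes ornithine, had 25.3, 25.8 and 24.8 normalised reads after ELF4 siRNA, against 58.4, 52.5 and 48.9 after control siRNA. Its mean was thus 47.5% of control (log2 fold change -1.04, SE 0.15, limma adjusted p = 7.37e-05).

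The methionine cycle feeds AMD1, and the methylthioadenosine salvage pathway recycles the by-product of SRM and SMS. Of 10 tested genes in this list 5 fell, 0 rose and 5 did not pass, so that the number called was near the 45.1% called over all rows (24.4% fell, 20.7% rose). At an unadjusted p under 0.05 limma gave 0 rises and 6 falls, edgeR 0 and 5, and DESeq2 0 and 5. At that threshold 24.2% of all rows rose and 27.6% fell in limma, 25.1% and 26.6% in edgeR, and 20.4% and 22.9% in DESeq2. ADI1, the dioxygenase near the end of the salvage pathway, had 761, 671 and 748 normalised reads after ELF4 siRNA, against 1249, 1270.3 and 1189 after control siRNA. All ELF4 siRNA libraries were far under the controls, and the log2 fold change was -0.77 (SE 0.06, limma adjusted p = 1.8e-07). MAT2B, the regulatory subunit of methionine adenosyltransferase, fell by 0.54 on the log2 scale (limma adjusted p = 1.21e-05). ENOPH1, the salvage enzyme that acts before ADI1, fell by 0.28 (limma adjusted p = 0.000159).

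Spermidine is also the donor for hypusine, the modified lysine of the translation factor eIF5A. Of the 4 genes in that list 3 fell, 0 rose and 1 did not pass, where 24.4% of all rows fell and 20.7% rose. Limma, edgeR and DESeq2 each gave 0 rises and 3 falls at an unadjusted p under 0.05, against 22.9% to 27.6% of all rows that fell and 20.4% to 25.1% that rose. EIF5A2, the second eIF5A gene, had 421, 368 and 379.8 normalised reads after ELF4 siRNA, against 584, 555 and 611 after control siRNA (log2 fold change -0.58, SE 0.07, limma adjusted p = 9.66e-06). DOHH, the hydroxylase of the last step, fell by 0.31 on the log2 scale (limma adjusted p = 0.00124). EIF5A fell by 0.24 (limma adjusted p = 0.000307), but near-identical copies with many reads, among them EIF5AL1, have rows of their own, so its level is uncertain. No systematic search for such copies was made over the genes of the lists.

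Among transporters and paralogs of the core genes, falls numbered 2, rises 2 and genes that did not pass 6 of 10 tested, which is at or under the 24.4% that fell and 20.7% that rose over all rows. SLC3A2, the heavy chain of amino acid transporters that has also been tied to polyamine export, had 3349.9, 3541 and 3523 normalised reads after ELF4 siRNA, against 4524, 4446 and 4400.5 after control siRNA (log2 fold change -0.36, SE 0.04, limma adjusted p = 5.95e-06). The polyamine-transporting ATPases moved in opposite directions. ATP13A3, linked to uptake at the cell surface and endosomes, fell (log2 fold change -0.30, SE 0.06, limma adjusted p = 0.000905). ATP13A2, the lysosomal exporter, rose and had 611, 615 and 594 normalised reads after ELF4 siRNA, against 509.7, 478 and 485 after control siRNA (log2 fold change 0.31, SE 0.06, limma adjusted p = 0.000553).

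**Figure D4:**
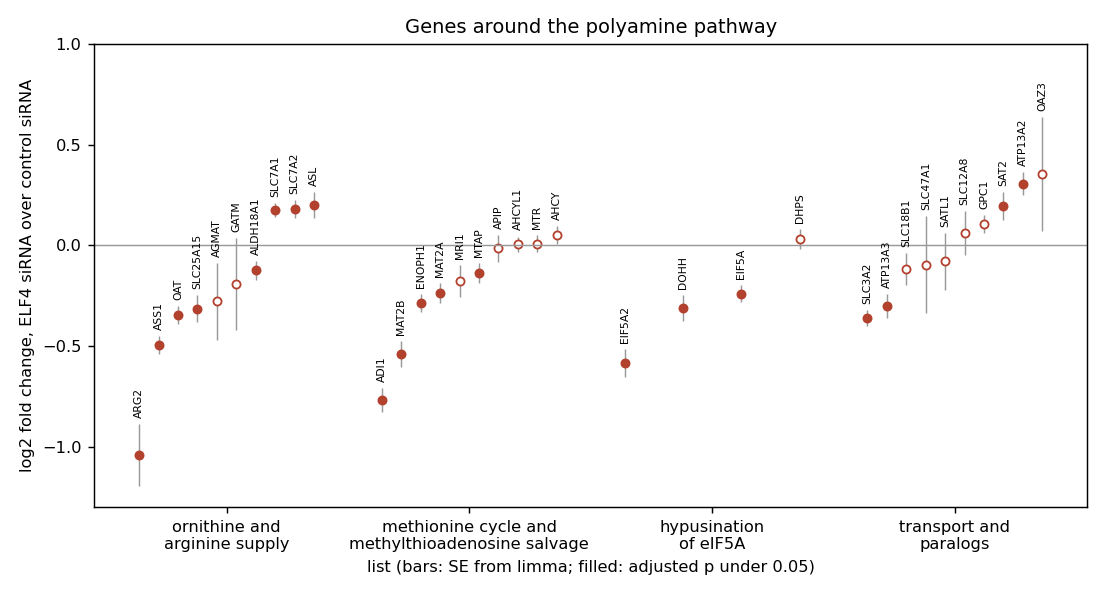
Log2 fold change, ELF4 siRNA over control siRNA, of the 34 tested genes around the polyamine pathway in 4 lists, with bars for the SE from limma and filled points for an adjusted p under 0.05. ARG2 lies lowest at -1.04, ADI1 and EIF5A2 are the lowest of their lists at -0.77 and -0.58, and ATP13A2 is at 0.31.

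The genes most like ODC1 in pattern were sought among 5369 single-name rows with a mean of at least 1000, by the root mean square difference of centred log2 values over the 6 libraries. The 5 nearest were CHD6 (0.0143), ARAP1 (0.0146), B3GAT3 (0.0151), C6orf106 (0.0153) and RET (0.0154), against a median difference of 0.123 over the rows compared. A difference under 0.05 from ODC1 was found for 366 of these 5369 rows (6.82%). RET, the GDNF family receptor, had 18088, 18415 and 18620.0 normalised reads after ELF4 siRNA, against 20908, 20951 and 20748 after control siRNA.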

How the data were processed

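The authors deposited 1 table of signal values, namely size-factor-normalised reads of each gene. The submitters' processing notes name hg19, featureCounts, TopHat and DESeq2. Versions, annotation, strand setting and filters are not stated in the labels or the file. Every value (100%) was a whole multiple, within 0.001, of what 1 read is worth in its library, so reads were recovered, 23148635 to 38097986 per library. In 2148 rows several gene names are joined, with 11.4% of reads.

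Limma was run on log2(value + 1) with a trend, over the 20339 rows reaching a value of 10 in 3 or more libraries, with Benjamini-Hochberg adjustment and a threshold of 0.05. The 10 genes, the lists and the tests were chosen with earlier results of these data known. Named were ELF4, MYCN, the 10 genes, the 3 genes of smallest adjusted p in each list and the 5 rows most like ODC1. AZIN2 was matched by its older symbol ADC. The labels say only that treatment was in triplicate, not that cultures were separate, so the p-values may measure a technical spread. Within groups the chi-square per degree of freedom was 2.05 to 5.78, so no library was a copy of another. Alternatives changed the pseudocount, filter, trend and scaling, used edgeR or DESeq2 on the recovered reads or a replicate block, or left out 1 library. GENCODE 29 and RefSeq are on GRCh38, so no coordinates were joined to the hg19 table.

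Tool versions were DESeq2 1.42.0, edgeR 4.0.16 and limma 3.58.1 in R 4.3.3, and scipy 1.17.1, pandas 2.3.3, matplotlib 3.10.9 and numpy 2.4.6 in Python 3.11.15.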

Additional observations from a re-analysis of the deposited data

How the results depend on the processing

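Of 461 values of 29 named genes under 17 alternatives, 443 kept their side of the threshold, 16 no longer passed, 2 passed where the main value had not, and 0 called values reversed. The sign differed in 6 where neither value passed. The genes named from the lists had the smallest adjusted p, and 5 others were picked for likeness to ODC1. That choice made their calls likely to hold, so the total overstates how firm the calls are. MYCN lost its call in 5 alternatives, AZIN1 in 5 and PAOX in 3. The alternative that added the joined row was read for PAOX only. The number of polyamine genes that fell stayed at 4 or 5. The number that rose was 1, but 0 with a mean of at least 100 (which removes PAOX) and with DESeq2, 2 with upper quartile scaling, and 0 to 2 when 1 library was left out. Of the genes in the lists around them, 5 rose, but 3 without the trend, 4 with DESeq2 and 3 to 5 when 1 library was left out. The number was 6 with a mean of at least 100, upper quartile scaling, edgeR or the replicate block. Of the 5 only ATP13A2 was followed singly through the alternatives, and its call held in each. The cause was not tested. Over all rows 4217 rose and 4956 fell, against 5479 and 3938 with upper quartile scaling, which moved the median log2 fold change to 0.06. CHD6 (adjusted p = 0.0616), ARAP1 (0.1) and B3GAT3 (0.0676) no longer passed there. The correlations of same-numbered deviations were 0.029, 0.0748 and 0.041 over all tested rows, where all 6 libraries were closest to their own number. Over rows with a mean of at least 100 they were 0.0427, 0.264 and 0.131. There ELF4 siRNA replicate 1 and control siRNA replicate 3 were closer to each other (0.153) than to their own numbers, so pairing is not settled. With a replicate block 5 of the polyamine genes fell and 1 rose, and 4564 and 5346 of all rows rose and fell. Depth limits PAOX and SMOX, with at most 54 reads a library.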

Other observations

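Chosen after their values were seen, the genes that rose in the list of ornithine and arginine supply were the cationic amino acid transporters SLC7A1 and SLC7A2 and the argininosuccinate lyase gene ASL. SLC7A1 had 9119.9, 9431 and 9372 normalised reads after ELF4 siRNA, against 8384, 8121 and 8201 after control siRNA (log2 fold change 0.18, limma adjusted p = 0.00118). SLC7A2 had 11455, 10926 and 11880.4 normalised reads after ELF4 siRNA, against 10353, 9564 and 10284 after control siRNA (log2 fold change 0.18, limma adjusted p = 0.00365). ASL had 600.4, 553 and 642 normalised reads after ELF4 siRNA, against 502, 539 and 518 after control siRNA (log2 fold change 0.20, limma adjusted p = 0.0217). In these genes the lowest ELF4 siRNA library lay above the highest control siRNA library, while SLC25A15, the mitochondrial ornithine carrier, fell (log2 fold change -0.31, limma adjusted p = 0.00146).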
